A study of Mus musculus with 9 samples.

Results

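The genes described here are the VEGF receptors and the neuropilins, 5 genes (Kdr, Flt1, Flt4, Nrp1 and Nrp2) taken by symbol from the 9277 genes of the deposited table, with all 5 found. Expression was measured by RNA sequencing in endothelial cells from mouse lung. The compared groups are Tie1-WT mice (4 libraries) and Tie1-CR mice (5 libraries), the latter carrying a form of the endothelial receptor Tie1 that proteases do not cleave. All 9 library names carry PBS. The labels used here do not give strain, age, sex, the way cells were isolated, or whether the allele is on both copies. They do not say that each library is a separate mouse either, and p-values then measure only spread between libraries, which may be technical.

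VEGF ligands act on endothelium through a family of receptor tyrosine kinases. Kdr (VEGFR2) is the main signalling receptor of blood vessels, Flt1 (VEGFR1) binds VEGF-A tightly with weak kinase activity and also exists as a secreted decoy, and Flt4 (VEGFR3) binds VEGF-C and VEGF-D and is best known from lymphatic vessels. The neuropilins Nrp1 and Nrp2 lack a kinase domain and serve as co-receptors for VEGFs and as receptors for class 3 semaphorins, where plexins transmit the signal. In the lung, Kdr is highest in the alveolar capillary cells called aerocytes.

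None of the 5 genes passed the test between the genotypes (limma over all 9277 genes, Benjamini-Hochberg adjusted p below 0.05). Flt1 and Flt4 had the highest differences, at 1.13-fold each in Tie1-CR (adjusted p = 0.0752 and 0.149), while Kdr, Nrp1 and Nrp2 lay within 1.05-fold of the Tie1-WT mean. Over all genes 4.05% passed, 1.28% as higher and 2.77% as lower in Tie1-CR. Flt1 and Flt4 had an unadjusted p below 0.05, as had 22.3% of all genes (8.27% as higher). Of the 5 genes only Flt1 had groups that did not overlap, which held for 10.5% of all genes (3.74% with Tie1-CR higher and 6.74% with Tie1-CR lower). The median difference was 0.03 log2 over the 5 genes and -0.03 over all genes.

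The libraries held 38208696 to 54408116 counted reads. All 10 pan-endothelial markers were measured, and their summed level ran from 17666 to 19278 CPM (reads of a gene relative to all counted reads of its library) in Tie1-WT and from 19475 to 20781 CPM in Tie1-CR, without overlap. Of 8 lymphatic markers 3 were measured, and the lymphatic factor Prox1 is not among the genes analysed here, each of which reached at least 10 CPM in some library. No marker of T and NK cells, B cells, neutrophils, mesothelium or leukocytes in general was measured (0 in each list). Of 11 macrophage and monocyte markers 2 were measured. Cd68 fell from a Tie1-WT mean of 10.67 CPM to 5.301 CPM (limma adjusted p = 0.0064). It reached 10 CPM only in Tie1-WT (up to 12.01 CPM, against at most 7.04 CPM in Tie1-CR). Cd68 is therefore among the genes analysed only through the group where it is high, which favours a fall. Lyz2, which type 2 pneumocytes also express, had means of 37.78 CPM and, in Tie1-CR, 76.19 CPM (limma adjusted p = 0.0669). Arterial markers (11 of 12 measured) summed to 3232 to 3729 CPM in Tie1-WT against 3869 to 4511 CPM, also without overlap, with 10 of 11 above 0. The arterial Hey1 (0.53 log2) and the venous Ephb4 (0.34 log2) rose (limma adjusted p = 0.0353 and 0.00787). Of 11 measured venous markers, Ephb4 was the 1 that passed, 6 were above 0 and the median was 0.01 log2. The venous sums overlapped, at 4523 to 5003 CPM in Tie1-WT and 4770 to 6611 CPM in Tie1-CR. The part of these markers in the levels of Flt1, Nos3 and Sox18, which were also higher in Tie1-CR, was not tested. Type 2 pneumocyte and airway markers (10 of 12 measured) summed to 294.1 to 666 CPM in Tie1-WT and 492.8 to 875.1 CPM in Tie1-CR. Of the 10, 3 rose, where 1.28% of all genes did, and all 10 were above 0, with a median of 0.99 log2. Cyp2f2, among the 3, reached 10 CPM only in Tie1-CR (up to 15.02 CPM, against at most 6.328 CPM in Tie1-WT), which favours a rise. In these bulk libraries fewer cells of a type and less RNA per cell cannot be told apart.

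Kdr lies on chromosome 5 (75932827 to 75978458, minus strand, GRCm38, GENCODE M21) and its longest coding transcript has 30 exons. It measured 2876, 2540, 2288 and 2974 CPM in Tie1-WT replicates 1 to 4, and 2439, 2717, 2824, 2761 and 2320 CPM in Tie1-CR replicates 1 to 5. The lowest and the highest of the 9 libraries are both Tie1-WT, and all 5 Tie1-CR libraries fall between them. The means were 2670 ± 315 CPM (SD, n = 4) and 2612 ± 220 CPM (SD, n = 5), a log2 difference of -0.03 (SE 0.09, limma adjusted p = 0.889). The 95% interval of this difference runs from 0.85-fold to 1.13-fold. Kdr was read at least 101940 times per library, a counting error of 0.31%, far below the spread between libraries.

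Kdr stood beside the markers of aerocytes in part of the libraries. The summed aerocyte markers (9 of 9 measured) were lowest in Tie1-WT replicate 3, at 6744 CPM, and highest in Tie1-WT replicate 4, at 9001 CPM, which are also the libraries with the lowest and the highest Kdr. Tie1-CR replicate 1 did not follow this, with 8853 CPM of aerocyte markers and the second lowest Kdr of its group. The range of the sum in Tie1-CR, from 7486 to 8853 CPM, lay inside that of Tie1-WT, and the part of these markers in the Kdr levels was not tested.

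Flt1 also lies on chromosome 5 (147561604 to 147726011, minus strand). It measured 552.1, 595.7, 562.6 and 549.9 CPM in Tie1-WT replicates 1 to 4, and 638.7, 625.9, 657.5, 600.6 and 669.3 CPM in Tie1-CR replicates 1 to 5. Every Tie1-CR library lay above every Tie1-WT library, with the nearest pair, Tie1-WT replicate 2 and Tie1-CR replicate 4, at 595.7 and 600.6 CPM. The means were 565 ± 21.2 CPM (SD, n = 4) and 638 ± 27.0 CPM (SD, n = 5), a log2 difference of 0.18 (SE 0.05, 95% interval 0.06 to 0.29). Flt1 varied little within genotypes, with an SD of 0.06 log2 against a median of 0.10 over all genes. Its adjusted p of 0.0752 missed the threshold in the fit with equal weights and passed it with library weights (0.20 log2, limma adjusted p = 0.0349). Over the other alternatives fitted by limma the adjusted p ran from 0.0627 to 0.236. GENCODE lists 2 coding transcripts of Flt1, of 1333 and 688 residues. The shorter has the size of the secreted form, and values per gene do not separate them.

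Set against the summed pan-endothelial markers, the Flt1 difference was smaller. Flt1 came to 3.07% ± 0.17 (SD, n = 4) of that sum in Tie1-WT and 3.17% ± 0.17 (SD, n = 5) in Tie1-CR, and the groups overlapped (0.04 log2, two-sided exact permutation p = 0.4286). All 10 of those markers had a log2 difference above 0, and 0 of them passed the test. The Flt4 difference also shrank on this scale, from 0.17 to 0.04 log2 (exact permutation p = 0.5476). Kdr differed by -0.16 log2 and Nrp1 by -0.10 (exact permutation p = 0.127 for both), and Nrp2 by -0.20 (exact permutation p = 0.4127). This scale was chosen after the data were seen, and its sum includes Tie1, the gene altered in the mutant mice. Tie1 itself differed by 0.19 log2 (limma adjusted p = 0.107), which adds to the higher sum of the mutant libraries. Ramp2 and Eng, also in the sum, differed more than Tie1, at 0.31 and 0.20 log2 (limma adjusted p = 0.086 and 0.116). A sum without Tie1 was not tested.

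**Figure D1:**
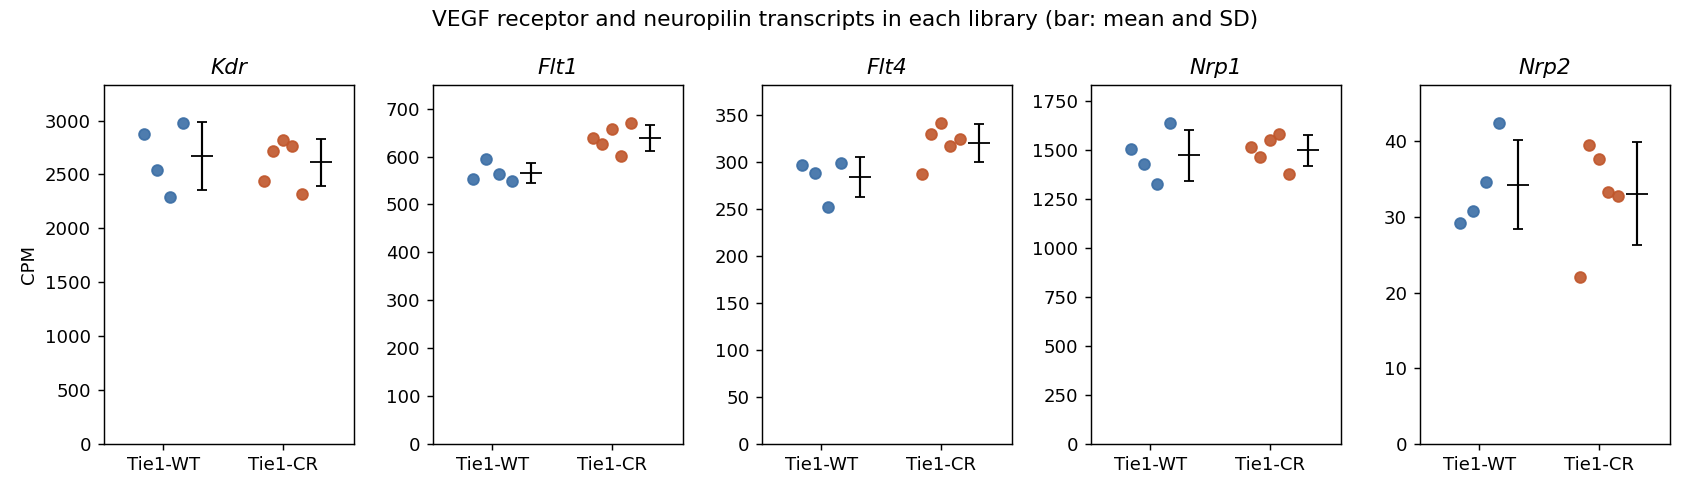
CPM (vertical axis, from 0, a scale per gene) of Kdr, Flt1, Flt4, Nrp1 and Nrp2 in 4 Tie1-WT and 5 Tie1-CR libraries, with points for libraries and bars for mean and SD. The groups are apart for Flt1, with Tie1-WT up to 595.7 and Tie1-CR from 600.6 CPM, and overlap for the other genes.

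**Figure D2:**
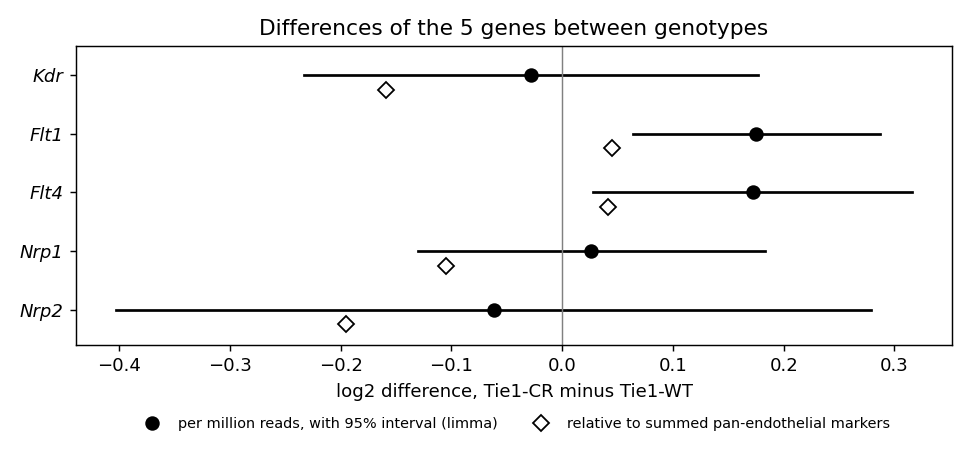
Log2 difference between Tie1-CR and Tie1-WT (horizontal axis) of each gene in CPM with its 95% interval (filled points, limma), and relative to the summed pan-endothelial markers (open diamonds). Flt1 moves from 0.18 to 0.04 and Kdr from -0.03 to -0.16 between these scales.

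Kdr and Flt1 are shown with the 250 bases before their RefSeq start sites (GRCm38.p6), since both bind VEGF-A and only Flt1 had groups apart. The window of Kdr is chr5:75978456-75978705 and that of Flt1 is chr5:147726012-147726261, both on the minus strand and written 5′ to 3′. Capitals mark, on either strand, the ETS core motifs CCGGAA and AGGAAG, the cAMP response element TGACGTCA and the TATA motif TATAAA.
Kdr: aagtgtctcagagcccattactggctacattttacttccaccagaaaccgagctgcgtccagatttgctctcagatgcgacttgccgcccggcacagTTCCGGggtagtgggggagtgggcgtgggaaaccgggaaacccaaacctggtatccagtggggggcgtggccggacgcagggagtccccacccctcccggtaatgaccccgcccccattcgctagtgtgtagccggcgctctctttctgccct
Flt1: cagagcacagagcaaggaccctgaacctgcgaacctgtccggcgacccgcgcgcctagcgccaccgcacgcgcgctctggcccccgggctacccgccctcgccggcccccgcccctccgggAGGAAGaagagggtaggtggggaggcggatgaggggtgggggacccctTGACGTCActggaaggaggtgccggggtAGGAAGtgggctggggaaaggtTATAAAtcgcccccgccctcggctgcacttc
The window of Flt1 holds AGGAAG 129 and 53 bases before the start, TGACGTCA at 81 bases and TATAAA at 31 bases. That of Kdr holds CCGGAA on the opposite strand at 153 bases and none of the other marked motifs. Of 32851 RefSeq promoter windows of this length, 12% hold CCGGAA, 29.5% AGGAAG, 1.55% TGACGTCA and 12.4% TATAAA. The windows of Flt4, Nrp1 and Nrp2 hold neither TGACGTCA nor TATAAA. Those of Flt4 (from 49609429) and Nrp1 (from 128358823) lie inside the GENCODE genes, which start further upstream. Bases before the GENCODE starts of these genes were not searched. The GC box GGGCGG occurs in all 5 windows (32.7% of all windows), 5 times in that of Nrp2. None of ACAATG (SOX, 10.7% of windows), GTAAACA (FOXO, 3.17%), ACGTG (hypoxia element, 16.6%), CACGTG (E-box, 6.02%, part of which overlaps the hypoxia element) and TGACTCA (AP-1, 4.46%) occurs in any of the 5, and CCACCC (KLF, 28.1%) occurs in 4 of them, Nrp2 being the exception. A match describes the letters only.

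Flt4 lies on chromosome 11 (49609263 to 49652739, plus strand). It measured 296.7, 288.6, 252.5 and 298.5 CPM in Tie1-WT replicates 1 to 4, and 287.6, 329.6, 341.2, 316.7 and 324.9 CPM in Tie1-CR replicates 1 to 5. In Tie1-CR 4 libraries lay above every Tie1-WT library, and replicate 1 lay within the Tie1-WT range. The means were 284 ± 21.5 CPM (SD, n = 4) and 320 ± 20.2 CPM (SD, n = 5), a log2 difference of 0.17 (SE 0.07, 95% interval 0.03 to 0.32, limma adjusted p = 0.149). Tie1-WT replicate 3 was low, and without it the difference was 0.12 log2. The lymphatic marker Lyve1 (735.9 to 1378 CPM in Tie1-WT, 833.8 to 1205 CPM in Tie1-CR) was highest in Tie1-WT replicate 3, the library with the lowest Flt4. The other measured lymphatic markers went with Flt4 at its lowest and highest libraries, but not in all libraries. Mmrn1 was lowest in Tie1-WT replicate 3, at 15.56 CPM, and highest in Tie1-CR replicate 3, at 49.82 CPM, the libraries with the lowest and the highest Flt4. Reln was lowest and highest in the same libraries, at 4.205 and 16.87 CPM. Tie1-CR replicate 4 did not follow this, with Mmrn1 at 21.51, Reln at 6.765 and Flt4 at 316.7 CPM. Neither gene passed the test between genotypes (limma adjusted p = 0.675 and 0.623), and the part of lymphatic cells in the Flt4 levels was not tested.

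Nrp1 lies on chromosome 8 (128358604 to 128503363, plus strand). It measured 1504, 1428, 1325 and 1636 CPM in Tie1-WT replicates 1 to 4, and 1515, 1466, 1552, 1580 and 1378 CPM in Tie1-CR replicates 1 to 5. The Tie1-CR libraries all fell inside the Tie1-WT range. The means were 1474 ± 131 CPM (SD, n = 4) and 1498 ± 79.6 CPM (SD, n = 5), a log2 difference of 0.03 (SE 0.07, limma adjusted p = 0.86) with a 95% interval from 0.91-fold to 1.14-fold. The sign was negative with library weights (-0.0074 log2) and relative to the pan-endothelial markers, so no direction can be given for Nrp1, nor for Kdr and Nrp2, whose signs also turned in some fits.

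Nrp2 lies on chromosome 1 (62703285 to 62818695, plus strand) and has 6 coding transcripts of 901 to 931 residues, the only one of the 5 genes with more than 2. It measured 29.26, 30.77, 34.59 and 42.38 CPM in Tie1-WT replicates 1 to 4, and 22.06, 39.57, 37.63, 33.31 and 32.73 CPM in Tie1-CR replicates 1 to 5. Tie1-CR replicate 1 was the lowest of the 9 libraries and Tie1-WT replicate 4 the highest. The means were 34.3 ± 5.86 CPM (SD, n = 4) and 33.1 ± 6.79 CPM (SD, n = 5), a log2 difference of -0.06 (SE 0.16, limma adjusted p = 0.848). Its 95% interval, from 0.76-fold to 1.21-fold, was the widest of the 5. The counting error was at most 2.89%, and the SD within genotypes of 0.29 log2 was above that of 96.0% of all genes. Summed fibroblast markers (5 of 9 measured, with Pdgfra and Dcn not among the genes analysed) were lowest in Tie1-CR replicate 1, at 20.7 CPM, and highest in Tie1-WT replicate 4, at 100.2 CPM. Mural markers (2 of 9 measured) were also lowest in Tie1-CR replicate 1, at 15.03 CPM, but highest in Tie1-CR replicate 5. The fibroblast sum did not follow Nrp2 in every library. It was 25.48 CPM in Tie1-WT replicate 3 (Nrp2 34.59 CPM) and 89.4 CPM in Tie1-WT replicate 2 (Nrp2 30.77 CPM). The part of fibroblast and mural markers in the Nrp2 spread was not tested.

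Per kilobase of exonic sequence of the gene, the order of the levels was Kdr, Nrp1, Flt1, Flt4 and Nrp2. Over the 9 libraries Kdr ran from 253 to 329 CPM per kilobase, Nrp1 from 135 to 167, Flt1 from 40.7 to 49.6, Flt4 from 30.7 to 41.4 and Nrp2 from 1.86 to 3.58. Flt1 and Flt4 were neighbours whose ranges overlapped, and the other neighbours did not overlap. Nrp2 lay 13-fold below Flt4. With the length of the longest coding transcript the order was the same, but then Kdr (386 to 502) and Nrp1 (368 to 455) overlapped and Flt1 (79.7 to 97.1) and Flt4 (40.4 to 54.5) did not.

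Ratios within a library do not depend on its scaling, and 4 were tested. The Kdr to Flt1 ratio was 4.74 ± 0.67 (SD, n = 4) in Tie1-WT and 4.10 ± 0.45 (SD, n = 5) in Tie1-CR, with overlap (-0.20 log2, exact permutation p = 0.1587, 0.3174 adjusted over the 4 ratios). The Flt4 to Kdr ratio was 0.1031, 0.1136, 0.1104 and 0.1003 in Tie1-WT replicates 1 to 4 and 0.1179, 0.1213, 0.1208, 0.1147 and 0.140 in Tie1-CR replicates 1 to 5. All Tie1-CR values lay above all Tie1-WT values, a mean difference of 0.20 log2 (two-sided exact permutation p = 0.0159, 0.0636 after adjustment over the 4 ratios, where 0.0079 is the smallest raw p that 126 splits allow). Without Tie1-CR replicate 5, which stood above its group, the difference was 0.15 log2 (exact permutation p = 0.0286). It therefore did not pass the adjusted threshold, and neither Flt4 nor Kdr did so alone. The Nrp1 to Kdr ratio, co-receptor to receptor, was 0.55 ± 0.02 (SD, n = 4) and 0.58 ± 0.03 (SD, n = 5), with a raw exact permutation p of 0.3254. Nrp1 to Nrp2 was 43.7 ± 6.37 (SD, n = 4) and 47.3 ± 12.5 (SD, n = 5), where Tie1-CR replicate 1 reached 68.67 (raw exact permutation p = 0.7222). The tightest of the 4 was Nrp1 to Kdr, with an SD within genotypes of 0.07 log2, against 0.15 for Kdr alone.

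**Figure D3:**
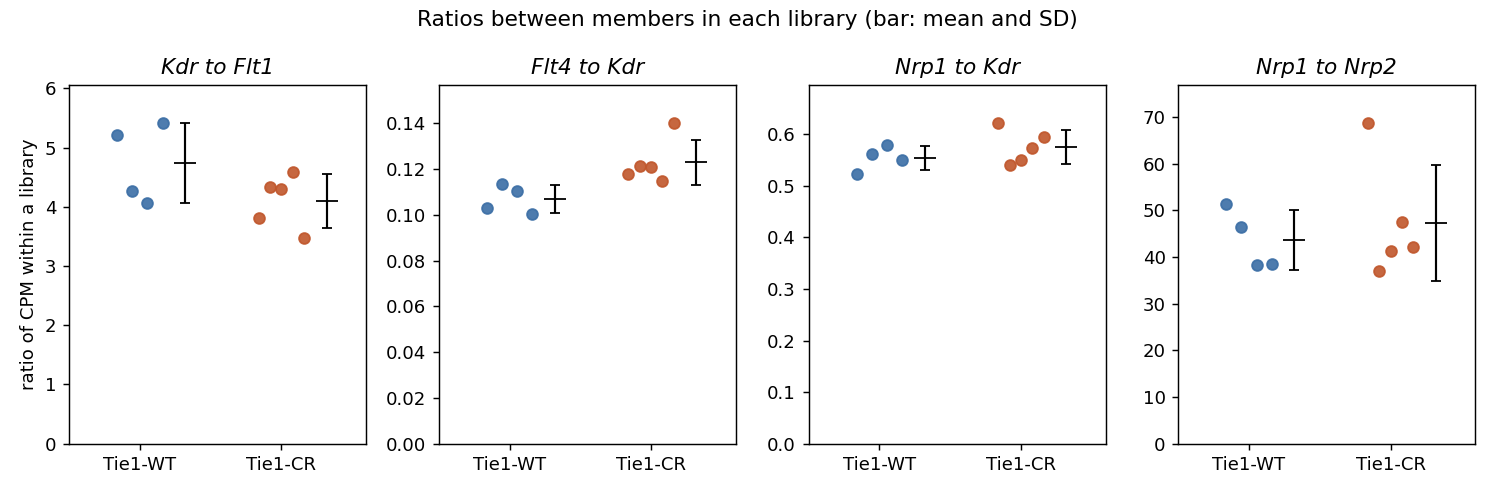
Ratios of CPM within each library (vertical axis, from 0) for Kdr to Flt1, Flt4 to Kdr, Nrp1 to Kdr and Nrp1 to Nrp2, with points for libraries and bars for mean and SD. Only Flt4 to Kdr has groups apart, up to 0.1136 in Tie1-WT and from 0.1147 in Tie1-CR.

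Within genotypes Kdr and Nrp1 went up and down together. After genotype means were subtracted, their log2 levels had a Pearson r of 0.88 and a Spearman rho of 0.90 over the 9 libraries, which share their cell makeup and processing, so this is a description. Among the 4261 other genes with a mean of at least 50 CPM, Nrp1 ranked 20 in likeness to Kdr. Flt4 also went with Kdr (r = 0.73), while Flt1 went against Kdr (r = -0.49) and Nrp1 (r = -0.52). Nrp2 had an r of 0.42 with Kdr and 0.19 with Nrp1.

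The 3 genes most like each receptor by r were Slc39a6, Ccng2 and Slc22a23 for Kdr (0.96 each), Atxn2, Ubtf and Luzp1 for Flt1 (0.99, 0.94 and 0.93), and Sort1, Rbms2 and Slc44a1 for Flt4 (0.98, 0.95 and 0.94). For Nrp1 they were Egflam, Plxdc1 and Cdh5 (0.95, 0.94 and 0.94), Cdh5 being the endothelial junction protein VE-cadherin. For Nrp2 they were Lrrk1, Cnnm3 and Zbtb46 (0.95, 0.92 and 0.91). Of these 15 only Slc39a6 passed the test between genotypes (a Tie1-WT mean of 140.7 CPM against 168.2 CPM, 0.26 log2 higher in Tie1-CR, limma adjusted p = 0.0231). With ranks in place of values, Rbms2 fell to place 66 for Flt4, and Egflam and Plxdc1 to place 43 for Nrp1. The 3 were picked as the highest of 4261 values of r (4262 for Nrp2) over 9 libraries, which gives high values by chance too. This likeness is therefore a description as well.

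**Figure D4:**
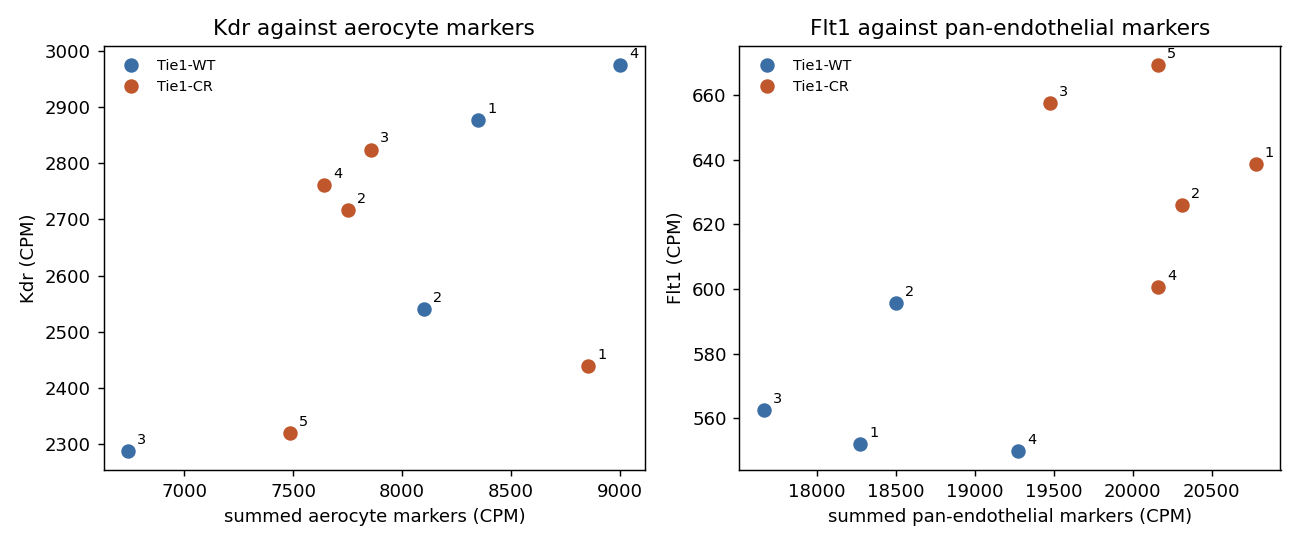
Kdr against summed aerocyte markers and Flt1 against summed pan-endothelial markers, all in CPM on axes that do not start at 0, with a point per library labelled by replicate number. Kdr is lowest and highest where aerocyte markers are (6744 and 9001 CPM), and both Flt1 and the pan-endothelial sum are higher in all Tie1-CR libraries.

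Ligands came next in the pathway, with 3 of 5 measured and 0 past the test. Vegfa, which drives blood vessel growth through Kdr, measured 967.5, 967.1, 962.2 and 878.9 CPM in Tie1-WT and 1080, 1139, 982.9, 1048 and 1048 CPM in Tie1-CR, without overlap (0.17 log2, limma adjusted p = 0.124). Vegfb, a ligand of Flt1 named after its values were seen, was 11.69 ± 1.06 CPM (SD, n = 4) and 14.28 ± 0.75 CPM (SD, n = 5), also without overlap (0.27 log2, limma adjusted p = 0.0701). It passed with TMM scaling (adjusted p = 0.0475), quantile normalization (0.0299) and library weights (0.0336). It did not pass with any library left out (0.0729 to 0.195). Vegfc, a ligand of Flt4, differed by 0.14 log2 with overlap. The median of the 3 was 0.17 log2. Type 1 pneumocytes are a main source of Vegfa in lung, and 6 of 8 other markers of these cells were measured, summing to 953 to 1182 CPM in Tie1-WT and 994.9 to 1116 CPM in Tie1-CR. Most of that sum was Clic5 (772.4 to 952.2 CPM), and the type 1 marker Ager ran from 16.1 to 80.58 CPM. The 6 markers had a median of -0.33 log2, with 0 above 0 and 0 past the test. Their part in the Vegfa levels was not tested.

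Class 3 semaphorins (4 of 7 measured) and the plexins that pair with neuropilins (4 of 5 measured) had 0 genes past the test, and all 8 had a log2 difference above 0, with medians of 0.14 and 0.08. Over all genes 41.5% were above 0. Sema3c, a capillary semaphorin that binds both neuropilins, measured 1910 ± 192 CPM (SD, n = 4) and 2001 ± 124 CPM (SD, n = 5). Sema3f, the Nrp2 ligand, measured 1040 ± 13.1 and 1200 ± 117 CPM without overlap (0.20 log2, limma adjusted p = 0.125). Sema3g, named after its values were seen, was nearest to the threshold (0.29 log2, limma adjusted p = 0.0545). It passed with TMM scaling (0.0487) and library weights (0.0481), but not with quantile normalization (0.0643) or with any library left out (0.0573 to 0.127). Plxna1 differed by 0.31 log2 (limma adjusted p = 0.109) and Plxnd1, the endothelial plexin, by 0.07.

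Of 13 measured partners and phosphatases of the receptors, 1 fell and 0 rose, with a median of 0.09 log2. Over all genes 2.77% fell and 1.28% rose. Ptpn11 (SHP2), a phosphatase that acts on receptor tyrosine kinase signalling, measured 55.2 ± 3.82 CPM in Tie1-WT (SD, n = 4) and fell to 43.4 ± 3.44 CPM in Tie1-CR (SD, n = 5) (-0.34 log2, limma adjusted p = 0.0225). Its call ended without Tie1-WT replicate 1, 2 or 3 (adjusted p of 0.0516 to 0.0884). Of 20 measured genes of receptor endocytosis and recycling, 1 fell and 0 rose, with a median of -0.06 log2. This count too stands beside the 2.77% of all genes that fell. Rab5c, an early endosome GTPase, measured 56.0 ± 2.14 CPM in Tie1-WT (SD, n = 4) and fell to 42.3 ± 3.94 CPM in Tie1-CR (SD, n = 5) (-0.40 log2, limma adjusted p = 0.0111), and its call held with each library left out.

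Of 38 measured signalling proteins downstream of the receptors, 1 rose, 1 fell and 36 did not pass, a share near the 4.05% of all genes that passed, with a median of -0.03 log2 as over all genes. Nos3, the endothelial nitric oxide synthase that VEGF activates, rose from 119.7, 128.6, 128.1 and 131.7 CPM in Tie1-WT to 149.3, 168.3, 159.4, 145.1 and 150.8 CPM in Tie1-CR. The groups did not overlap, and the difference was 0.28 log2 (SE 0.05, limma adjusted p = 0.0192). The call ended without Tie1-WT replicate 1 or 2 (0.0801 and 0.055), and with the replicate block (0.0602). Nfatc2, a calcineurin-dependent transcription factor, measured 9.08 ± 1.48 CPM in Tie1-WT (SD, n = 4) and fell to 5.82 ± 0.53 CPM in Tie1-CR (SD, n = 5) (-0.56 log2, limma adjusted p = 0.0257). That call ended with quantile normalization (0.0597) or the replicate block (0.0801). It also ended when replicate 1, 2 or 3 of Tie1-WT, or 4 or 5 of Tie1-CR, was dropped (0.0505 to 0.0814). Nfatc2 reached 10 CPM only in Tie1-WT replicate 3 (10.99 CPM), against at most 6.491 CPM in Tie1-CR. It is therefore among the genes analysed only through the group where it is high, which favours a fall.

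Of 14 measured transcripts that VEGF induces in endothelium, 5 fell and 0 rose, with a median of -0.50 log2, where 2.77% of all genes fell. This direction was known from earlier results of these data. The part of VEGF signalling in these levels was not tested. The 5 were Dusp5 (-1.49 log2), a phosphatase of ERK kinases, Egr3 (-1.35), an early transcription factor, Ptgs2 (-1.06), the inducible cyclooxygenase, Rcan1 (-0.68), a calcineurin inhibitor, and Nr4a2 (-0.73), an early nuclear receptor named after its values were seen. Dusp5 and Egr3 reached 10 CPM only in Tie1-WT (up to 29.92 and 15.62 CPM, against at most 9.71 and 5.496 CPM in Tie1-CR). They are therefore among the genes analysed only through the group where they are high, which favours falls in this count. When replicate 1, 2 or 3 of Tie1-WT, or 4 or 5 of Tie1-CR, was dropped the count was 3, since Rcan1 and Nr4a2 no longer passed. Rcan1 also did not pass with robust empirical Bayes (limma adjusted p = 0.0529) or the replicate block (0.0535), and Nr4a2 did not with quantile normalization (0.0609) or when replicate 1 of Tie1-CR was dropped (0.0623). Nr4a1, a relative of Nr4a2 also named after its values were seen, ran from 205.3 to 630.1 CPM in Tie1-WT and from 80.23 to 345.8 CPM in Tie1-CR, with overlap (-1.52 log2, limma adjusted p = 0.0608). Others of the list did not pass, among them Esm1 at 0.02 log2, Dll4 at 0.26, Apln at -0.43 and Angpt2 at -0.23 (limma adjusted p = 0.948, 0.129, 0.149 and 0.111), all 4 named after their values were seen.

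Of 18 measured transcription factors that act on receptor genes, 1 rose and 1 fell, with a median of -0.01 log2. Over all genes 1.28% rose and 2.77% fell. Erg, an ETS factor of endothelium, fell by 0.41 log2 (limma adjusted p = 0.00516), while its relative Fli1, named after its values were seen, differed by 0.02 (limma adjusted p = 0.932). Sox18, a SoxF factor, rose by 0.46 log2 (limma adjusted p = 0.0395), a call that ended with 7 of the 9 libraries left out singly (0.0626 to 0.117), all but Tie1-WT replicate 4 and Tie1-CR replicate 3. The call of Sox18 also ended with the replicate block (limma adjusted p = 0.0803).

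**Figure D5:**
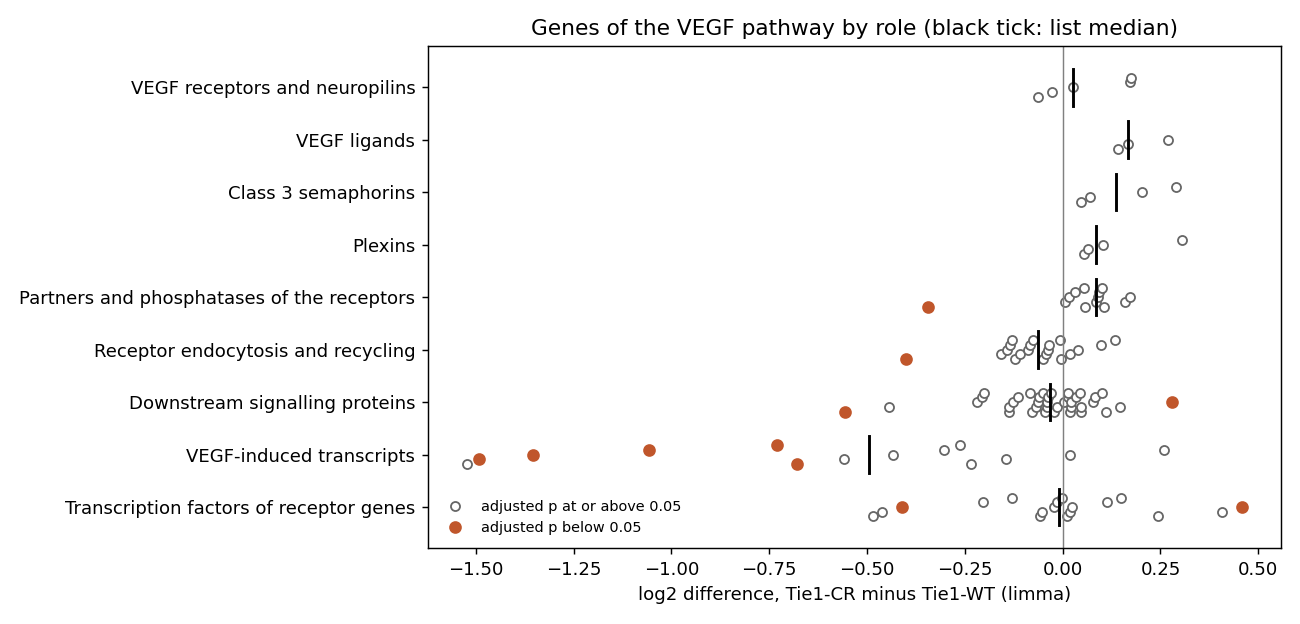
Log2 difference between Tie1-CR and Tie1-WT (horizontal axis, limma) of each measured gene in the 9 lists by role, filled where the adjusted p was below 0.05, with a black tick at each list's median. The receptors sit between -0.06 and 0.18, and the VEGF-induced transcripts spread furthest, from -1.52 to 0.26.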

How the data were processed

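The authors deposited a single table of values that they name TPM but that were made as CPM, reads per gene divided by the counted reads of the library, as shown by the values as deposited. In each library 100% of values are an integer times 1 fixed amount (within 0.01 reads), which gave the reads per library. They are not divided by gene length, so levels between genes are given per kilobase. Per the submitters' processing notes, STAR 2.7 and the builds GRCm38.p6 and mm10 were used. For the counting tool, strand setting, annotation and gene filter the sources used here give nothing.

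Values were used as log2(CPM + 1), and asking for 1 CPM or more in 4 or more libraries removed 0 genes. Fold changes on this scale understate those of low genes. Tie1-CR was compared with Tie1-WT by limma 3.58.1 (R 4.3.3, trended empirical Bayes, two-sided) over all genes. Ratios were tested by exact permutation over all splits, two-sided. On simulated data for the same comparison and 9277 genes, 97.0% of genes changed by 0.5 log2 and 100% changed by 1 log2 were recovered. There were 9 false calls among 206. The simulation used a dispersion setting of 0.01. Recovery was not simulated for differences as small as that of Flt1 (0.18 log2). Nor was it simulated for a spread set to that of Nrp2 (SD within genotypes of 0.29 log2). The recovered shares therefore do not give the power for the receptor and neuropilin genes.

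The 5 genes and the lists were chosen with earlier results of these data known. Named genes are the 5, up to 4 genes past the threshold per list, or the 2 with the highest mean where none passed, and the 3 most alike. Alternatives covered pseudocount, filter, scaling, variance model, library weights, replicate block and each library left out. Promoter sequences are from RefSeq (GRCm38.p6), which matched all 5 symbols.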

Additional observations from a re-analysis of the deposited data

Results flagged for a closer look

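Among 56 groups of libraries examined (named genes and ratios in each genotype), 5 held a library that stood apart from the rest of its group. Chance alone flags about 1 in 20 groups. The Flt4 to Kdr ratio of Tie1-CR replicate 5 was 0.140, where the other 4 ran from 0.1147 to 0.1213. Vegfa in Tie1-WT replicate 4 was 878.9 CPM, below 962.2 to 967.5 CPM in the others. Vegfc in Tie1-WT replicate 3 was 98.89 CPM, above 79.29 to 82.1 CPM. Sema3c in Tie1-WT replicate 1 was 2197 CPM, above 1807 to 1823 CPM. Sema3g in Tie1-WT replicate 3 was 466.8 CPM, below 561.4 to 578 CPM. None of the 5 receptor and neuropilin genes had such a library in its own CPM.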

How the results depend on the processing

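Leaving out each library in turn moved the log2 difference of Kdr from -0.0995 to 0.0266, of Flt1 from 0.158 to 0.201, of Flt4 from 0.117 to 0.21, of Nrp1 from -0.0231 to 0.0781 and of Nrp2 from -0.132 to 0.0722, with no gene past the threshold in any of these fits. Kdr turned positive when replicate 1 (0.0105) or 4 (0.0266) of Tie1-WT was dropped, and also without replicate 5 of Tie1-CR (0.0137). Nrp1 turned negative when Tie1-WT replicate 3 was dropped (-0.0231), and Nrp2 positive when Tie1-WT replicate 4 (0.0427) or Tie1-CR replicate 1 (0.0722) was. With library weights Flt1 passed (0.196), and Nrp1 (-0.00739) and Nrp2 (0.00778) changed sign. Relative to the pan-endothelial markers Nrp1 was -0.105. With the replicate block Kdr was 0.0137, Flt1 0.158 (adjusted p = 0.236), and the Flt4 to Kdr ratio 0.153 (exact sign-flip p = 0.125, the smallest that 4 pairs allow). The block left 0 downstream signalling proteins and 1 transcription factor past the threshold. The labels do not say that the numbers pair the libraries. Deviations of same-numbered libraries correlated at -0.144 to 0.19, and 1 of 4 Tie1-WT libraries correlated best with its own number. These few values cannot exclude a pairing. The Nrp1 to Nrp2 ratio was -0.0525 without Tie1-CR replicate 1 and otherwise up to 0.173. The Flt4 to Kdr ratio ran from 0.153 to 0.231 with single libraries left out.

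Counts past the threshold moved to 1 for VEGF ligands with TMM scaling, quantile normalization, library weights or a threshold of 0.10, to 1 for class 3 semaphorins with TMM scaling, library weights or 0.10, to 1 for downstream signalling proteins with the 10 CPM filter or quantile normalization, and to 4 for transcription factors at 0.10. With single libraries left out they ran from 0 to 1 for partners and phosphatases, 0 to 3 for downstream signalling proteins, 3 to 7 for VEGF-induced transcripts and 1 to 3 for transcription factors. Where no cause follows from fewer libraries or genes tested, the cause was not tested. A count test on recovered reads was not run. Depth was not the limit for the 5 genes, whose counting error was at most 2.89%. The fewest reads behind a named gene were 137, for Egr3, a counting error of 8.54%.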
